A study of Mus musculus with 160 samples.

Results

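The complement system was read here through 9 mouse genes measured in RNA of the distal colon: C1ra, C1s1, C4b, C2, C3, Cfb, Cfi, C3ar1 and C5ar1. They were chosen by name, as complement components that colon tissue could make, and were found by matching the Ensembl identifiers of the count tables to mouse gene symbols. All 9 were present among the 39179 genes of the tables.

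Complement is a cascade of blood and tissue proteins that tags microbes and damaged cells. In the classical pathway, C1r and C1s are the proteases of the C1 complex, which cut C4 and C2 to form an enzyme that splits C3. In the alternative pathway, factor B joins deposited C3b to form a further enzyme of that kind, and factor I inactivates C3b and C4b. The small fragments C3a and C5a act on receptors of myeloid cells, encoded by C3ar1 and C5ar1. The liver supplies most plasma complement, while epithelial cells, fibroblasts and macrophages are known local sources in gut tissue.

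The data were 160 RNA-seq libraries from 4 knockout lines, in which mice labelled homozygous knockout (KO) or wild type (WT) were compared. The lines were Nckap1l (Hem1; C57BL6/J, 16 KO with 4 females and 15 WT with 8 females, tissue taken on day 12), Dock2 (C57BL6/J, 18 KO with 8 females and 24 WT with 12 females, day 10, 3% dextran sulfate sodium), Gpsm3 (C57BL6/J, 20 KO and 20 WT males, day 10, 3%) and Dok3 (strain 129, 26 KO and 21 WT males, day 10, 3.5%). Dextran sulfate sodium (DSS) is a drinking-water irritant that damages the colon epithelium. It was given for 5 days before a return to water, and the doses above are those of the labels, which state none for the Nckap1l line. The study's methods give that line a dose somewhat below 3%, the Dok3 line 3% in a first round, and all groups young adult mice matched for age. The labels do not say which mice received DSS, so every value pools whatever treatments a group holds, and the agent cannot be told apart from other sources of spread within a group. All 4 targeted genes are used mainly by blood cells, and no cell-type-restricted deletion is given, so a KO colon lacks the gene in every cell type as the labels describe it.

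Totals ran from 4344988 to 19993833 counts a library, with a median of 15989625, and 8 libraries held fewer than 10000000. A count of 3 was worth 0.15 CPM (counts per 1000000, scaled by TMM) in the deepest library and 0.69 CPM in the shallowest. Colon epithelial genes were present in every library (Epcam 266 to 1620 CPM). Sex-linked genes differed from the label in 5 Dok3 libraries and in none of the other lines. Genes of skin or striated muscle summed to at least 100 CPM in 33 libraries, among them 8 of 16 KO and 8 of 15 WT libraries of the Nckap1l line, against 1 of 18 and 4 of 24 in Dock2, 2 of 20 and 1 of 20 in Gpsm3, and 4 of 26 and 5 of 21 in Dok3. Prostate genes at 10 CPM or more, or Alb at 100 CPM or more, were seen in 20 libraries, among them 6 of 20 KO and 6 of 20 WT libraries of the Gpsm3 line. These limits were set after the values were seen, and the main results that moved are given with and without such libraries. The targeted gene had a lower mean in KO than in WT in each line: 20.9 ± 18.2 against 43.1 ± 32.0 CPM for Nckap1l, 24.4 ± 10.2 against 37.5 ± 13.6 for Dock2, 0.791 ± 0.840 against 3.35 ± 1.39 for Gpsm3 and 4.42 ± 7.52 against 6.16 ± 6.02 for Dok3 (mean ± SD). Of these differences only that of Gpsm3 passed in edgeR (adjusted p = 0.000105; 0.979, 0.181 and 1.00 for Nckap1l, Dock2 and Dok3). The deleted part of each gene is not given in the sources used here, so counts outside it would check nothing.

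The genes lie on 4 chromosomes of GRCm38 (mm10). C2 (chr17:34862604-34898265), Cfb (chr17:34856374-34862518) and C4b (chr17:34728380-34743882) sit close together on the minus strand of chromosome 17, in the class III region of the mouse histocompatibility complex. C3 (chr17:57203970-57228136, minus) lies further along the same chromosome. C1ra (chr6:124512405-124523443, plus) and C1s1 (chr6:124530345-124542359, minus) are neighbours on chromosome 6, which also carries C3ar1 (chr6:122847138-122856161, minus). C5ar1 is at chr7:16246743-16259540 (minus) and Cfi at chr3:129835884-129875332 (plus).

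Several members share sequence with other genes, which bears on how far their counts can be read. A readthrough gene model, Gm20547, runs on the same strand through both C2 and Cfb and covers 79.5% of the exon bases of Cfb (2246 bases) and 42.8% of those of C2 (1656 bases). Gm20547 had 0 counts in all 160 libraries, so no read on the shared bases was counted for it. Whether such reads were dropped or counted for Cfb and C2 is not given in the sources used here. The levels of Cfb and C2 are therefore uncertain, and understated if such reads were dropped. Of all 100-base windows of the Cfb transcripts, 66.9% also occurred in another gene, against 37.1% for C2, 35.9% for C1ra (34.5% with C1rb), 17.4% for C1s1, 15.2% for C4b (with C4a) and 0% for C3, Cfi, C3ar1 and C5ar1. The near-identical copies held few counts: 2868 for C4a against 341361 for C4b, 5145 for C1rb against 96161 for C1ra, and 2281 for C1s2 against 206640 for C1s1.

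**Figure D1:**
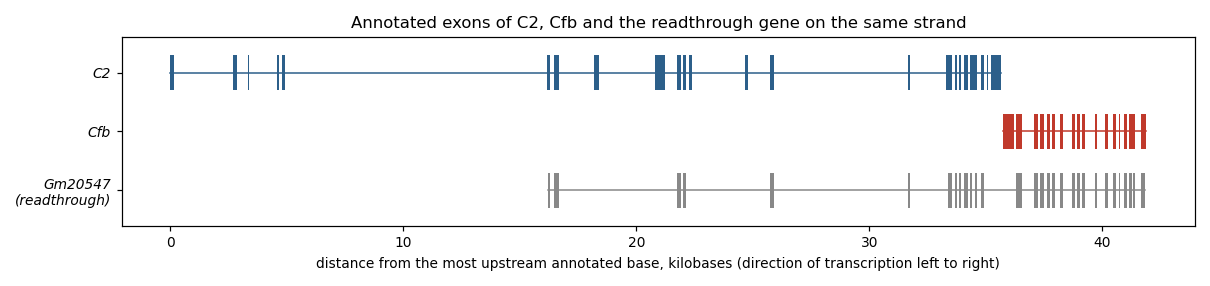
Exons of C2, Cfb and the readthrough model Gm20547, drawn to scale against distance in bases; boxes are exons and lines are introns. The exons of Gm20547 cover 79.5% of the exon bases of Cfb and 42.8% of those of C2.

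The sequences before the starts of C3, C1ra and C1s1 are shown because these genes moved together across the libraries, as described further on. They are from RefSeq on GRCm38.p6, which had an entry for 5 of the 9 members (C3, C1ra, C1s1, C3ar1 and C5ar1). Each run is the 250 bases before the start that RefSeq annotates, read 5′ to 3′ on the gene's strand. The runs are at chr17:57228137-57228386 (minus) for C3, chr6:124512371-124512620 (plus) for C1ra and chr6:124542360-124542609 (minus) for C1s1. The RefSeq start of C1ra lies inside the gene span given above, which begins at chr6:124512405. Most of the C1ra run therefore lies within that span and not before it. Capitals mark matches, on either strand, to the letters searched: a loose NF-kB consensus (3 G, then any 5 bases, then 2 C), a GAS consensus (TTCNNNGAA), an ISRE consensus (GAAA repeated after any 2 bases), a C/EBP consensus (TTGCNNAA) and the TATA box (TATAAA).
C3: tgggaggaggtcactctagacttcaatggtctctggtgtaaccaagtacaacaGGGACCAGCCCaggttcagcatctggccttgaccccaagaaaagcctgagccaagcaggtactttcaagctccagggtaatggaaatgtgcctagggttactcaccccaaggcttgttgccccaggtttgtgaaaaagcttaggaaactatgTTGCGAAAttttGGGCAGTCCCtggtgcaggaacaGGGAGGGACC
C1ra: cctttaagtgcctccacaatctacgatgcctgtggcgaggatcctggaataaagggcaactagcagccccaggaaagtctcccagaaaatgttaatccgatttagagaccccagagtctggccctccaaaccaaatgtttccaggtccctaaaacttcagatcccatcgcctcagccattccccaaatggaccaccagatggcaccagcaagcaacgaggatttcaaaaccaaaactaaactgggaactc
C1s1: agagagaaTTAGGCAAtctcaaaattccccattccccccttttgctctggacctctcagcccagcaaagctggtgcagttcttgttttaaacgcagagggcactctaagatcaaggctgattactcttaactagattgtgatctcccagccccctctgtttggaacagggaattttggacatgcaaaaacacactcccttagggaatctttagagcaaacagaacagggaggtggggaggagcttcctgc

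The C3 run held NF-kB letters beginning 197, 196, 33 and 10 bases before the start, and C/EBP letters beginning 45 bases before it. The matches at 197 and 196 overlap, one on each strand, and the match at 33 reads on both strands. C1s1 held C/EBP letters beginning 242 bases before the start shown. RefSeq has a further C1s1 start, whose run (chr6:124542322-124542571, minus) held NF-kB letters beginning 35 bases before it. The C1ra run, which lies mostly inside the gene span given above, held none of the letters. The NF-kB letters are loose: 45.8% of the 32851 RefSeq starts had them in the 250 bases before the start, against 9.6% for C/EBP, 7.0% for GAS, 3.0% for ISRE and 12.4% for the TATA box. A match is a description of the letters, and no factor was measured here.

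C3, the protein on which all pathways converge, was the most abundant member. Its median was 229.9 CPM, and its level ran from 28.6 to 3371 CPM across the 160 libraries. The classical-pathway genes followed. C4b, whose product is cut by C1s, had a median of 102 CPM (30.7 to 552). C1s1 was at 71.0 CPM (30.0 to 269) and C1ra at 31.6 CPM (10.6 to 155). C2, which supplies the protease of the classical C3-splitting enzyme, was far lower, at 2.14 CPM (0.706 to 9.33).

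In the alternative pathway, Cfb (factor B) had a median of 3.02 CPM and a narrow range, from 0.867 to 5.90. Cfi (factor I) was close to the limit of detection, with a median of 0.125 CPM. It had 0 counts in 24 libraries and 3 or fewer in 112, so differences in Cfi between groups were not detectable at this depth. Of the receptors, C3ar1 was at 21.4 CPM (4.39 to 121) and C5ar1 at 11.6 CPM (1.98 to 175).

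Divided by exon length, median levels in CPM per kilobase were ordered C3 (44.7), C1s1 (22.7), C4b (17.9), C1ra (10.6), C3ar1 (4.98), C5ar1 (4.50), Cfb (1.07), C2 (0.553) and Cfi (0.056). Neighbours in this order were mostly well separated within a library: C3 was above C1s1 in 155 of 160 libraries, C1ra above C3ar1 in 160, C5ar1 above Cfb in 157 and C2 above Cfi in 159. C1s1 and C4b overlapped more (C1s1 higher in 123), as did Cfb and C2 (131). C3ar1 and C5ar1 were the least separated pair, with C3ar1 higher in 102 of 160. The same median CPM divided by the number of 100-base windows not shared with another gene gave 2.84 for Cfb and 0.833 for C2 per kilobase of windows. The order of the members stayed as it was. No reads were recounted, so this holds only if reads on shared bases were not counted, which is not known.

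**Figure D2:**
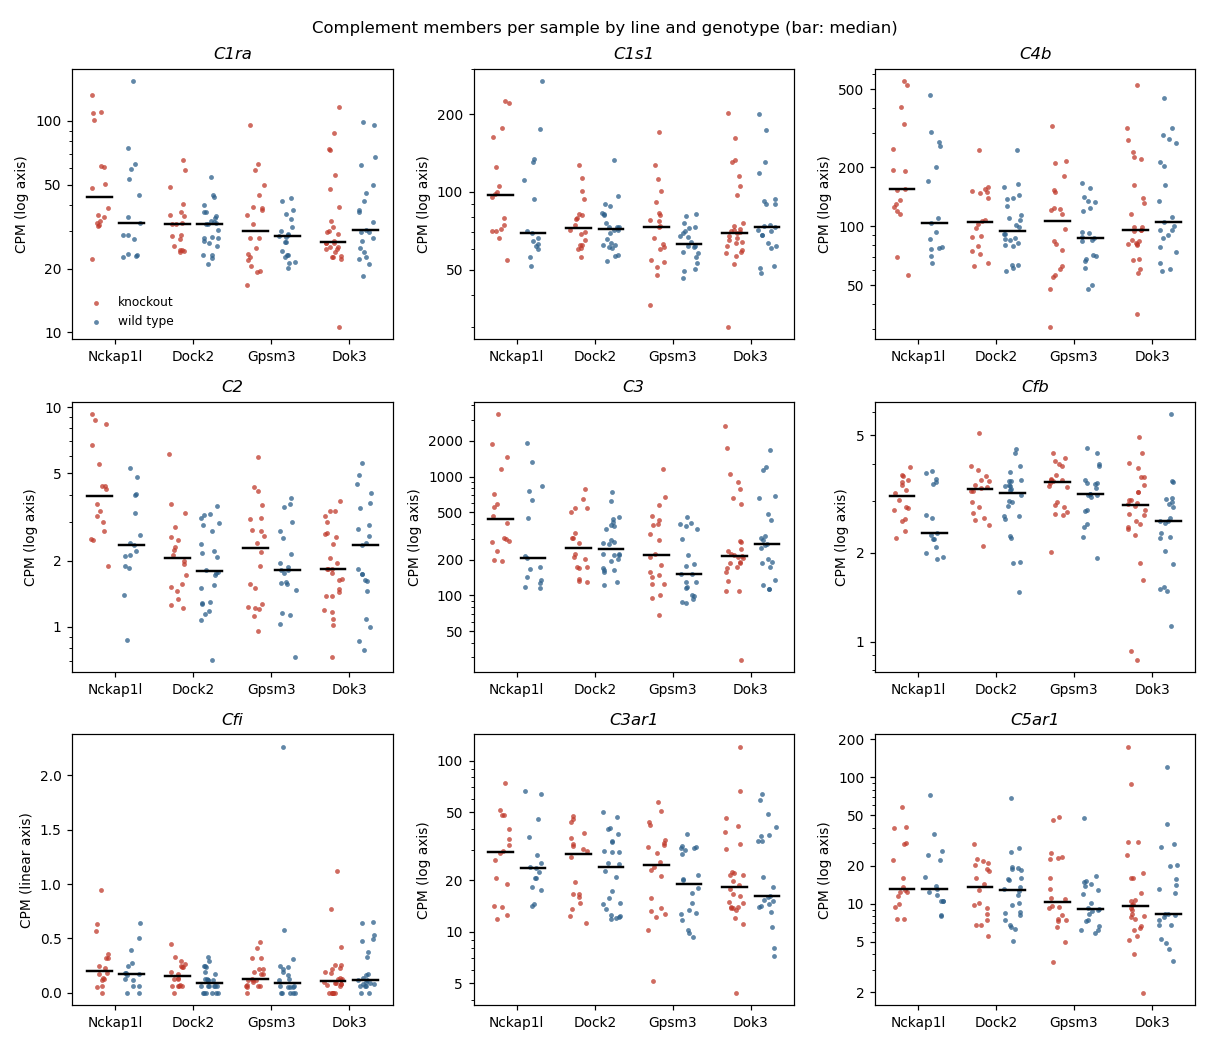
Level of each member in CPM on a log axis, one point a library, by line and genotype, with the group median as a bar (Cfi on a linear axis). KO and WT libraries overlap for every member in every line, and the highest C3 library, an Nckap1l KO at 3371 CPM, stands far above its group's median of 437 CPM.

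Other complement genes, taken from a list of 44, place these levels in context. The C1q chains C1qa, C1qb and C1qc, which recognise targets in the C1 complex, had medians of 38.4, 42.1 and 46.2 CPM. Serping1, the inhibitor of C1r and C1s, was at 99.3 CPM, and Cd55, a membrane inhibitor of the C3-splitting enzymes, at 111 CPM. The terminal components were sparse, with Hc (C5) at 0.149, C9 at 0.0625 and C8a and C8b at 0 CPM, and the mannose-binding lectins Mbl1 and Mbl2 had medians of 0. Among 8 hepatocyte genes, Apoa1, Fgb, Fga, Serpina1a and Ahsg were at 3 counts or fewer in most libraries, and Alb had a median of 0.921 CPM. The remaining pair, Ttr and Trf, which tissues other than liver also express, were higher, with medians of 26.7 and 6.37 CPM. Whole tissue was sequenced, so fewer cells of a type and less RNA per cell cannot be told apart in any of these values.

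Most of the spread of each member lay between libraries of one group. The share of the variance of log2 CPM within line-and-genotype groups was 79.3% for C2, between 87.8% and 88.4% for C3, C4b, Cfb, C1ra and C1s1, and 94.3% to 96.0% for Cfi, C5ar1 and C3ar1. The share between genotypes of a line reached 6.44% for C2 and 3.41% for C3, and was 0.377% for C5ar1. C3 varied most: its 90th percentile was 6.67 times its 10th, against 4.71 for C5ar1, 4.15 for C4b and 1.96 for Cfb.

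Among the 8 groups, the median of C3 ran from 150 (Gpsm3 WT) to 437 CPM (Nckap1l KO). That of C2 ran from 1.80 (Dock2 WT) to 3.92 CPM (Nckap1l KO). The 8 medians ran from 87.7 (Gpsm3 WT) to 155 CPM (Nckap1l KO) for C4b, from 26.9 (Dok3 KO) to 43.5 (Nckap1l KO) for C1ra, and from 63.0 (Gpsm3 WT) to 96.9 (Nckap1l KO) for C1s1. They ran from 16.3 (Dok3 WT) to 29.3 (Nckap1l KO) for C3ar1, from 8.37 (Dok3 WT) to 13.7 (Dock2 KO) for C5ar1, from 2.32 (Nckap1l WT) to 3.47 (Gpsm3 KO) for Cfb and from 0.0893 (Dock2 WT) to 0.204 (Nckap1l KO) for Cfi. The Nckap1l KO group thus had the highest median of C4b, C1ra, C1s1 and C3ar1, while the ranges of the groups overlapped for each of them. Without libraries with skin or striated muscle genes these medians were 123, 33.2, 72.5 and 19.8 CPM in Nckap1l KO and 171, 44.4, 94.2 and 25.2 in Nckap1l WT. The Cfi medians lie near the limit of detection, so no ranking is given for it.

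A small set of libraries carried much of the C3 RNA. The 16 libraries with the most C3 (785 to 3371 CPM) held 37.8% of the C3 level summed over all 160. They came from 4 KO and 3 WT mice of the Nckap1l line, 4 KO and 3 WT of Dok3, 1 KO of Dock2 and 1 KO of Gpsm3. In these libraries C2, C4b, C1ra, C1s1, C3ar1 and C5ar1 were above the median of their own line in 16 of 16, and Cfi in 15. Cfb was above its line median in 7 of 16. Because the libraries were picked by C3, these counts describe them and test nothing.

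The library with the most C3 in each line was a KO, at 3371 CPM in Nckap1l (replicate 5), 785 in Dock2 (replicate 13), 1166 in Gpsm3 (replicate 14) and 2641 in Dok3 (replicate 17). The Dok3 library also held the highest C5ar1 (175 CPM) and C3ar1 (121 CPM) of the series, with 3277 CPM of the neutrophil gene S100a8. Epcam, an epithelial surface protein, was lowest or second lowest of its line in each of these 4 libraries. Those of Nckap1l and Dock2 held skin or striated muscle genes at 100 CPM or more, and those of Gpsm3 and Dok3 did not.

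Across libraries most members moved together, and Cfb stood apart. Log2 CPM was compared after the mean of each line was removed (n = 160). C3, C4b, C1ra and C1s1 varied together, with Pearson r between 0.929 and 0.974, and the highest value joined C1ra and C1s1, the 2 proteases of C1. Both receptors tracked each other (r = 0.911) and were also tied to this group, C3ar1 at 0.857 and C5ar1 at 0.873 with C3. C2 was less tightly tied, at 0.733 with C3, 0.730 with C4b and 0.574 with C5ar1. Cfb ran the other way, from -0.223 with C2 to -0.388 with C3ar1. Its median count was 48, and Gm20547 covers 79.5% of its exon bases, so its counts may come from only part of the gene. These values share libraries and are scaled to the same totals, so they are not independent of each other.

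The relations of the group of 4 were also seen within single lines. C1ra and C1s1 had r = 0.978 in Nckap1l (n = 31), 0.965 in Dock2 (n = 42), 0.955 in Gpsm3 (n = 40) and 0.983 in Dok3 (n = 47). The Spearman values were 0.975, 0.956, 0.933 and 0.956, and r was 0.931 or more in each line once the 2 libraries farthest from the C1ra median were left out. C3 and C4b had r = 0.963, 0.930, 0.887 and 0.927 in the same order (rho 0.952, 0.936, 0.864 and 0.922), and between 0.855 and 0.955 without the 2 farthest libraries. Each of these had the smallest p that 100000 permutations can give, 1e-05 (adjusted p = 1.7e-05 over 360 correlations for r). Within the runs of sample numbers of a line, r of C3 and C4b was 0.865 to 0.986.

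**Figure D3:**
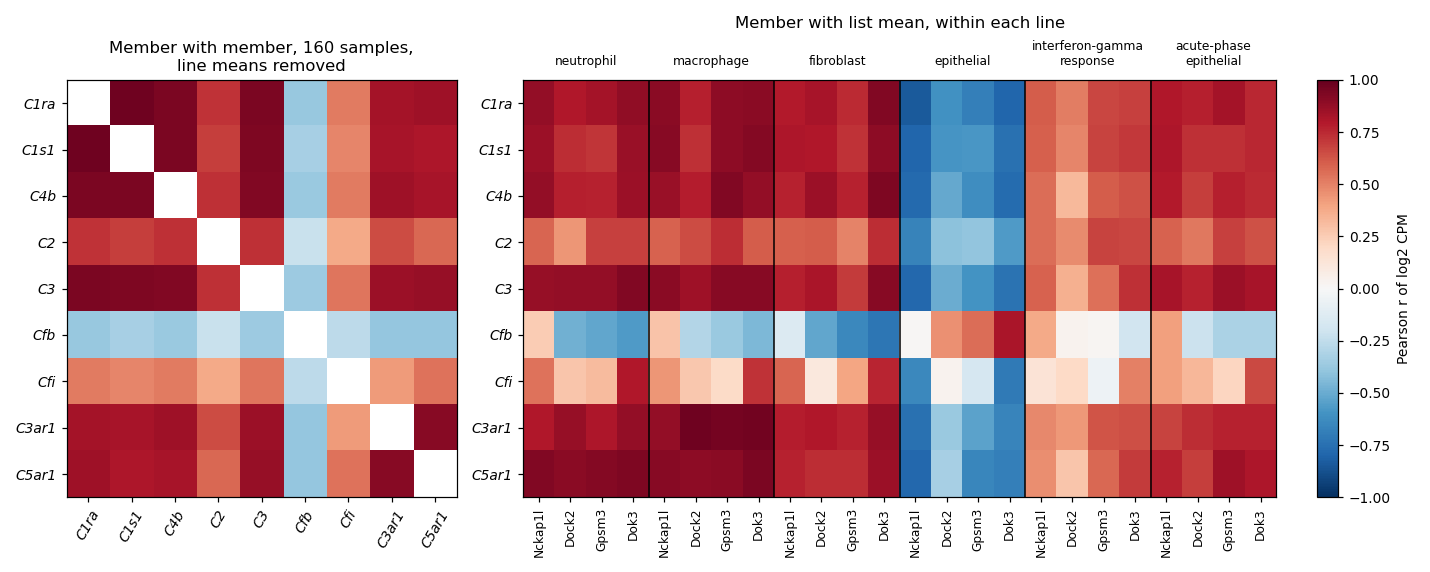
Pearson r of log2 CPM between members, and between members and the mean of marker lists, with blue for negative and red for positive values. C3, C4b, C1ra and C1s1 form a block with r of 0.929 or more, and Cfb is negative with each other member.

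The genes most like each member were found among 14514 genes with a mean log2 CPM of at least 1, by Pearson r over the 160 libraries with line means removed. For C3 they were C1ra (0.941), C1s1 (0.930) and C4b (0.929), all members. For C4b and C1s1 the 3 nearest genes were likewise the other members of this group of 4. For C1ra they were C1s1, C4b and Ifitm3 (0.942), an interferon-induced membrane protein. C2 was nearest to Nlrc5 (0.756), the transactivator of MHC class I genes, Trafd1 (0.741) and the class I gene H2-Q7 (0.740). C3ar1 was nearest to the macrophage genes Cd68 (0.936), Clec4a1 (0.932) and C1qb (0.931). C5ar1 was nearest to Gm49339 (0.956), Pirb (0.953) and Slc11a1 (0.953), the last 2 expressed by myeloid cells. Cfb was nearest to Ces2e (0.689), an intestinal carboxylesterase, Hsd17b11 (0.688) and Sema4a (0.683), and Cfi to Ednrb (0.625), Cd302 (0.624) and Cebpb (0.618).

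Marker lists of cell types were then set beside the members, most of which followed several lists at once. Over members, lists and lines, 360 correlations were computed, and 313 had an adjusted permutation p under 0.05. Of the 240 of these in lines with several runs of sample numbers, 227 kept their sign in every run. C3 followed the neutrophil list (7 genes, among them S100a8 and Csf3r), with r = 0.874 in Nckap1l, 0.881 in Dock2, 0.882 in Gpsm3 and 0.922 in Dok3 (rho 0.821, 0.881, 0.873 and 0.948), and the macrophage list (8 genes, among them Csf1r and Adgre1) about as closely, at 0.899, 0.846, 0.908 and 0.913. C5ar1 had r = 0.924, 0.905, 0.917 and 0.932 with the neutrophil list and 0.914, 0.895, 0.899 and 0.944 with the macrophage list. C3ar1 was at 0.878, 0.974, 0.957 and 0.962 with the macrophage list and 0.801, 0.868, 0.809 and 0.877 with the neutrophil list. C4b followed the fibroblast list (8 genes, among them Col1a1 and Pdgfra) at 0.771, 0.858, 0.770 and 0.931 and the macrophage list at 0.861, 0.786, 0.923 and 0.878. C1s1 was at 0.808, 0.803, 0.722 and 0.891 with the fibroblast list and higher with the macrophage list in 3 of the 4 lines, at 0.908, 0.733, 0.891 and 0.915. All of these had p = 1e-05 for r, the smallest the permutations can give. Each of these members thus followed more than 1 list. A list of acute-phase and defence genes of the epithelium (9 genes, among them Lcn2 and Duox2, with Reg3b and Reg3g near 0) gave r = 0.821, 0.769, 0.859 and 0.824 with C3 (rho 0.848, 0.784, 0.806 and 0.830).

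C3 was lower where epithelial genes were higher. Its r with the epithelial list (8 genes, among them Epcam and Muc2) was -0.784, -0.493, -0.595 and -0.735 in Nckap1l, Dock2, Gpsm3 and Dok3 (rho -0.702, -0.456, -0.536 and -0.742), and -0.681, -0.409, -0.453 and -0.657 without the 2 libraries farthest from the median. C2 was negative with this list as well, at -0.671, -0.411, -0.395 and -0.564. It followed the interferon-gamma response list (13 of 14 genes measured, among them Irf1) at 0.556, 0.473, 0.674 and 0.669, the macrophage list at 0.587, 0.650, 0.735 and 0.604 and the fibroblast list at 0.599, 0.603, 0.494 and 0.736. Libraries with skin or striated muscle genes had a lower median Epcam than the others in every line and genotype, as in Dok3 KO (779 against 1203 CPM). Their median C3 was lower in Nckap1l WT (190 against 452 CPM) and Gpsm3 KO (197 against 258). It was higher in every other line and genotype, as in Nckap1l KO (936 against 285) and Dok3 KO (972 against 209). Dock2 KO and Gpsm3 WT each held only 1 such library. No correlation was computed without these libraries, and the part of other tissue was not tested. Which cells made the RNA was not tested.

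Cfb was the member with a positive relation to the epithelial list, in 3 of 4 lines. Its r was 0.455 in Dock2 (rho 0.413), 0.560 in Gpsm3 (rho 0.514) and 0.818 in Dok3 (rho 0.725), with adjusted p = 0.00444, 0.000266 and 1.7e-05 by permutation. Without the 2 farthest libraries it was 0.385, 0.476 and 0.809. In Nckap1l it was 0.010 (adjusted p = 0.957), and the 3 runs of sample numbers of that line differed in sign, at -0.468, -0.075 and 0.721. Cfb and C3 showed the same split: r was -0.436, -0.429 and -0.605 in Dock2, Gpsm3 and Dok3, and 0.300 in Nckap1l (adjusted p = 0.114), where the runs gave 0.732, -0.053 and -0.677. No direction can therefore be given for Cfb in the Nckap1l line. In all 4 lines, how reads on bases shared with Gm20547 were counted is unknown, which limits each of these Cfb values.

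**Figure D4:**
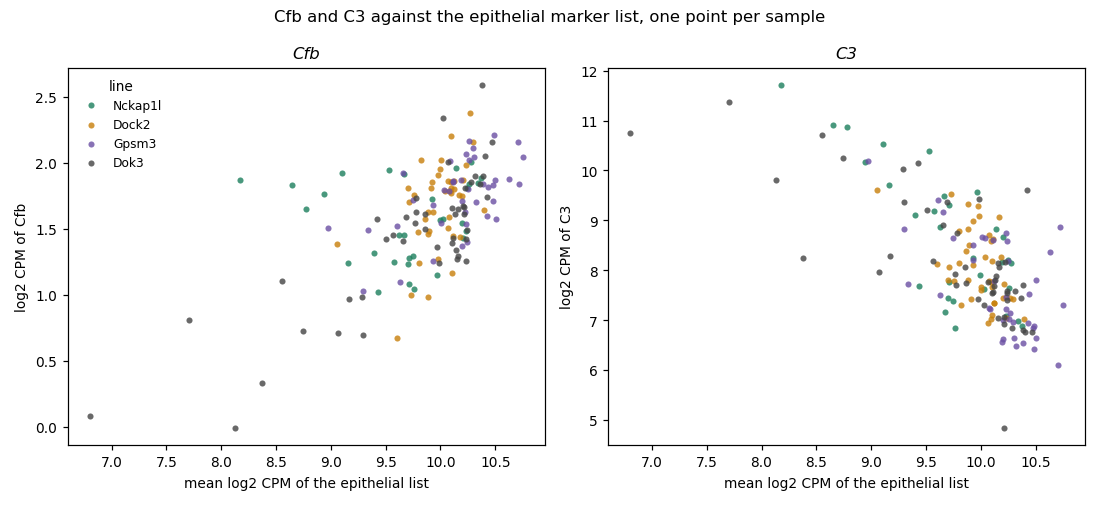
Log2 CPM of Cfb and of C3 against the mean log2 CPM of 8 epithelial genes, one point a library, by line. C3 is lower where the epithelial mean is higher in all 4 lines (r -0.493 to -0.784), while Cfb is higher there in Dock2, Gpsm3 and Dok3 (r 0.455 to 0.818) and shows no slope in Nckap1l (r 0.010). These r values include libraries with skin or striated muscle genes.

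Knockout and wild-type colon were compared in each line, the comparison for which the mice were bred. No member passed in any line. Of 8 members tested in each line (Cfi was below the filter on low counts), 0 had an adjusted p under 0.05 in edgeR, against a background of 0.00526% of 19009 genes in Nckap1l, 0.0333% of 18006 in Dock2, 0.00569% of 17560 in Gpsm3 and 0.0% of 17612 in Dok3. DESeq2 and limma-voom also called 0 members in each line. At an unadjusted p under 0.05, edgeR gave C2 in Nckap1l (all genes 4.61%), C1s1 in Gpsm3 (4.86%), and none in Dock2 (5.25%) or Dok3 (2.18%). DESeq2 gave C2 in Nckap1l and C3 and C1s1 in Gpsm3, and limma-voom gave C2 in Nckap1l.

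The log2 differences of the 8 members were above 0 for 8 in Nckap1l, 7 in Dock2, 8 in Gpsm3 and 4 in Dok3. Their medians were 0.30, 0.10, 0.31 and -0.02, beside medians over all genes between -0.001 and 0.007. Since the members move together across libraries, these counts are not 8 separate observations.

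In the Nckap1l line, C2 ran from 1.89 to 9.33 CPM in KO (median 3.92) and from 0.872 to 5.26 in WT (median 2.35). The groups overlapped, with the highest values in KO. The mean was 4.65 ± 2.39 CPM in KO (SD, n = 16) and 2.75 ± 1.27 in WT (n = 15), and the log2 difference was 0.85 ± 0.25 (SE; edgeR, unadjusted p = 0.00177, adjusted p = 0.658). By runs of sample numbers, KO and WT medians were 6.11 and 2.38 in run A, 3.19 and 2.70 in run B, and 2.99 and 1.39 in run C. Mean C2 was thus higher in KO within each run, and most of the gap lay in run A, where all 6 KO libraries were at 4.23 or more.

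C3 in this line ran from 196 to 3371 CPM in KO (median 437) and from 115 to 1921 in WT (median 205). The ranges overlapped, with WT reaching further down and KO further up. The log2 difference was 0.69 ± 0.48 (adjusted p = 0.999), an interval of 2 SE from -0.27 to 1.65. C4b differed by 0.49 ± 0.33, C1ra by 0.36 ± 0.30 and C1s1 by 0.23 ± 0.25 on the log2 scale, each with adjusted p = 0.999 in edgeR.

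These directions changed when libraries that also held skin or striated muscle genes were left out. Median C3 was 936 CPM in the 8 KO libraries with such genes and 285 in the 8 without, whereas in WT it was 190 in the 8 with and 452 in the 7 without. Without these libraries, C3 was at -1.24, C4b at -0.72, C1ra at -0.69 and C1s1 at -0.56 (log2, KO minus WT), C2 at 0.36, and 1 of 8 members was above 0. None passed in edgeR (adjusted p for C3 = 0.285), and at an unadjusted p under 0.05 only C5ar1 did (all genes 17.9%). The libraries left out included every KO library of run A of the sample numbers and most WT libraries of that run. Leaving them out therefore cannot be told apart from leaving out most of run A. Leaving out instead the 2 WT libraries with prostate or liver genes, of which replicate 10 had C3 at 1921 CPM, gave 6 of 8 members at an unadjusted p under 0.05 (C3, C2, C4b, C1ra, C1s1 and C5ar1; all genes 5.82%), and 0 at an adjusted p under 0.05. No direction for C3, C4b, C1ra or C1s1 in the Nckap1l line therefore held across these choices.

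Covariates also moved the Nckap1l calls. With the mean of the neutrophil list as a covariate, C3 was 1.00 ± 0.18 higher in KO (log2; edgeR, adjusted p = 0.0364; 0.0103% of all genes passed). With 2 surrogate variables estimated from the counts, 5 members passed: C3 at 1.09, C2 at 0.92, C4b at 0.67, C1ra at 0.53 and C1s1 at 0.39, where 0.57% of all genes did. With runs of sample numbers as a covariate, none did. Summed over its genes, the neutrophil list was at 27.4 to 927 CPM in KO libraries of this line (median 61.7). In WT libraries the sum was 45.9 to 1758 CPM (median 75.6). Over the whole series Ly6g had a median of 48.4 CPM and a lowest value of 13.8. Each other gene of the list had a median of 4.63 CPM or less, so the medians of the sum may mostly reflect Ly6g. The part of the list in the result was not tested further.

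**Figure D5:**
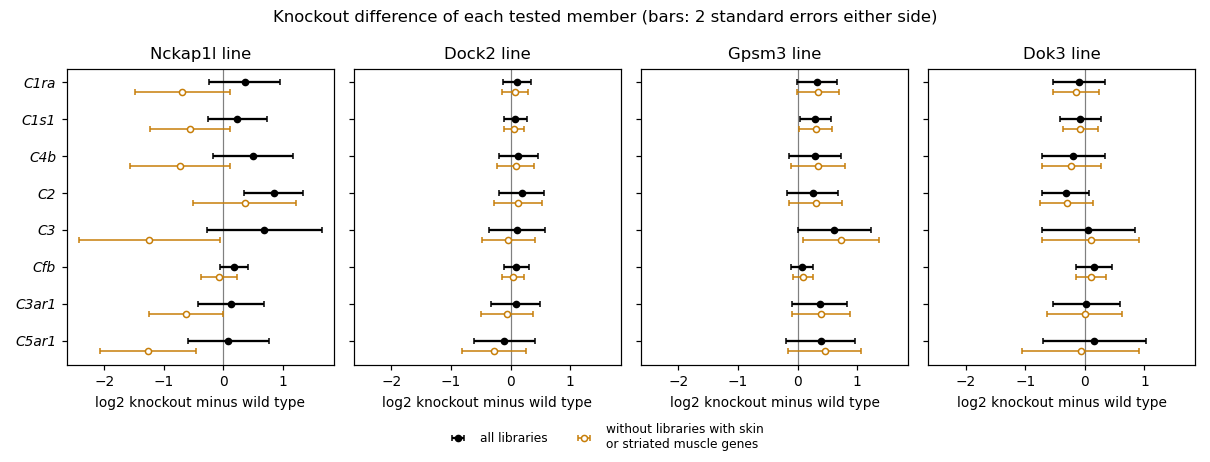
Log2 difference of KO minus WT for the 8 members tested in each line, with bars of 2 standard errors either side; open points leave out libraries with skin or striated muscle genes. In Nckap1l the point of C3 moves from 0.69 to -1.24 when those libraries are left out, and in Dock2 all members stay within 0.19 of 0 with every library in.

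In the Gpsm3 line, C1s1 ran from 36.4 to 170 CPM in KO (median 73.5) and from 46.4 to 82.3 in WT (median 63.0). KO libraries reached both further down and further up. The log2 difference was 0.30 ± 0.13 (edgeR, unadjusted p = 0.0285, adjusted p = 0.937). C3 was at 68.2 to 1166 CPM in KO (median 217) and 85.5 to 453 in WT (median 150), a log2 difference of 0.61 ± 0.31 (adjusted p = 0.937). C4b differed by 0.30 ± 0.22 and C2 by 0.25 ± 0.22. With the neutrophil list as a covariate, the difference of C3 was 0.21 and that of C1s1 0.14. Without libraries with prostate or liver genes they were 0.32 and 0.22 (edgeR, unadjusted p = 0.335 and 0.0795). Without libraries with skin or striated muscle genes they were 0.73 and 0.30, both at an unadjusted p under 0.05 in edgeR (all genes 7.62%).

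In the Dock2 line the members lay nearest to 0. C3 ran from 131 to 785 CPM in KO (median 249) and from 122 to 734 in WT (median 245), a log2 difference of 0.10 ± 0.23, so that an interval of 2 SE spans -0.37 to 0.57. C2 differed by 0.19 ± 0.19, C4b by 0.13 ± 0.16 and C1s1 by 0.08 ± 0.10. The remaining members lay between -0.10 and 0.11.

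In the Dok3 line, C3 ran from 28.6 to 2641 CPM in KO (median 216) and from 112 to 1685 in WT (median 269), a log2 difference of 0.06 ± 0.39. C2 was at 0.732 to 3.73 CPM in KO (median 1.83) and 0.786 to 5.58 in WT (median 2.35), a log2 difference of -0.32 ± 0.20 (edgeR, adjusted p = 1.00). C4b differed by -0.19 ± 0.27 and C1s1 by -0.07 ± 0.17. Without the 5 libraries whose sex-linked genes differed from the label, C2 was at -0.41 and C3 at 0.08, and 0 members passed.

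Whether the genotype difference itself varied between lines was tested over all 160 libraries. Of 8 members, 0 passed in edgeR (0.718% of 20047 genes did) and 0 in DESeq2. C2 had the lowest p (unadjusted p = 0.00513, adjusted p = 0.284), its KO minus WT differences being 0.85, 0.19, 0.25 and -0.32 in Nckap1l, Dock2, Gpsm3 and Dok3. At an unadjusted p under 0.05 (all genes 5.76%), C2 was the one member in both tools. With the neutrophil covariate, C3 (adjusted p = 0.0120) and C2 (adjusted p = 0.0170) passed, as did 0.8% of all genes. Without libraries with skin or striated muscle genes, C3, C1ra and C1s1 had an unadjusted p under 0.05 in edgeR (all genes 16.4%), and C2 did not. Without those with prostate or liver genes, C2, C4b and C1ra did (all genes 10.5%). No member had an adjusted p under 0.05 in either case.

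Females and males were compared in the lines that hold both. In Nckap1l 0 of 8 members passed in edgeR (0.237% of all genes did), and in Dock2 0 of 8 passed although 9.81% of all genes did. With every library in, neither line had a member at an unadjusted p under 0.05 (all genes 16.7% and 25.6%), and DESeq2 gave 0 at either threshold. Without libraries with prostate or liver genes, Nckap1l gave C3 (log2 1.34), C4b, C1ra and C1s1 at that p in edgeR (all genes 18.5%). Without libraries with skin or striated muscle genes, Dock2 gave C3 (log2 -0.51, all genes 32.6%). No member had an adjusted p under 0.05 in either case. C3 ran from 135 to 3371 CPM in Nckap1l females (median 260) and from 115 to 1921 in males (median 407), a log2 difference of 0.55 ± 0.48 for female minus male once genotype was in the model. In Dock2 C3 was at 122 to 785 CPM in females (median 211) and 129 to 643 in males (median 277), a difference of -0.16 ± 0.23. C4b differed by 0.37 ± 0.34 and 0.13 ± 0.16. With the neutrophil list as a covariate, C4b in Dock2 was 0.37 ± 0.09 higher in females (log2, edgeR, adjusted p = 0.00531), where 9.09% of all genes passed. The sexes overlapped for each member in each line. The genotype difference did not differ between the sexes at the threshold for any member in Nckap1l (0.0% of genes) or Dock2 (0.31%). No member reached an unadjusted p under 0.05 in that test, by edgeR (all genes 3.68% and 4.75%) or DESeq2.

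Wild-type males of strain 129 (the Dok3 line, n = 21) were set against those of C57BL6/J (the other 3 lines weighted equally, n = 39). Strain cannot be told apart from line, DSS dose and, for Nckap1l, day. Of 8 members 0 passed in edgeR, although 16.1% of 19603 genes did, and 0 passed in DESeq2. C4b alone had an unadjusted p under 0.05, in both tools (all genes 29.9% in edgeR). C4b was 0.45 ± 0.20 higher in 129 on the log2 scale (unadjusted p = 0.0315, adjusted p = 0.125), with means of 159 ± 107 against 110 ± 69.1 CPM. C3 differed by 0.47 ± 0.29, C1ra by 0.15 ± 0.17 and C1s1 by 0.16 ± 0.13. Without libraries holding prostate or liver genes, 4 members passed (C3 at 0.98, C4b at 0.71, C1ra at 0.45 and C1s1 at 0.37; all genes 23.1%), and without those holding skin or striated muscle genes 0 passed and C3 was at -0.04. The neutrophil covariate gave C3 at 0.50 and C4b at 0.45, both past the threshold (all genes 23%).

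Of the 44 other complement genes, 35, 32, 32 and 33 could be tested between KO and WT in Nckap1l, Dock2, Gpsm3 and Dok3. Cr2, the complement receptor of B cells and follicular dendritic cells, was the only one called, and only in Dock2, where 5 of 18006 genes were called lower. Its mean was 6.18 ± 5.46 CPM in KO (n = 18) and 17.8 ± 9.30 in WT (n = 24), a log2 difference of -1.53 ± 0.28 (edgeR, adjusted p = 0.0129). Limma-voom gave -1.47 (adjusted p = 0.309) and males alone -1.73 (adjusted p = 0.172). The calls in other lines were not compared with that of Dock2 by a test for Cr2 alone, and in the test of line by genotype no complement gene of the list passed.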

How the data were processed

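RNA of mouse distal colon was made into ribosomal RNA-depleted stranded libraries and sequenced as single 100-base reads. Per the labels and the study's methods, the authors aligned reads with STAR (mm10) and made gene counts by featureCounts of the Subread package; versions and settings for strand and shared exons are not given in the sources used here. The deposited values are raw counts per Ensembl gene. Symbols and positions came from GENCODE on GRCm38, which named 37607 of 39179 genes (99.67% of counts).

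The members, gene lists and tests were chosen with earlier results of these data known. Genes named are the 9 members, other complement genes past the threshold and copies of members, the 3 genes most like each member, overlapping genes on the same strand, and the 4 targeted genes. Which genes of the fixed list of 44 are quoted for their levels, and the prostate genes and Alb, was decided after values were seen.

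After TMM scaling (factors 0.905 to 1.075) and the filterByExpr filter, each line was fitted on its own in edgeR (4.0.16, R 4.3.3) and tested by quasi-likelihood, with sex as a covariate in Nckap1l and Dock2. P-values were adjusted by Benjamini-Hochberg over all genes, with a threshold of 0.05. Standard errors were derived from the F statistic. Log2 CPM used a prior count of 2, and correlation p-values 100000 permutations, two-sided, adjusted over 360. Alternatives tried were limma-voom (limma 3.58.1), which the study used, DESeq2 1.42.0, other filters, scalings, covariates (sva 3.50.0) and subsets of libraries; runs of sample numbers are runs of the numbers in the titles. The model was tested on simulated data. No 2 libraries of a group agreed within sampling noise. Each library is taken as 1 mouse, which the labels do not state in words, so p-values measure the spread between libraries.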

Additional observations from a re-analysis of the deposited data

Results flagged for a closer look

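One library was flagged against its group for a pair of members. Among the 8 Dock2 KO females, replicate 13 had C1ra at 65.2 CPM, where the next highest was 35.9, and C1s1 at 127 CPM, where the next highest was 79.4. In both cases the gap to the nearest library was large for the range of the group (Dixon's test at the 95% level). These were the 2 flags in 45 tests, each of 1 member in 1 group, and chance flags about 1 test in 20. Only groups of 4 to 10 libraries of the same line, genotype and sex were tested. Larger groups, among them all of Gpsm3 and Dok3, were not tested. Both flags come from 1 library, and C1ra and C1s1 had r = 0.965 in this line. The flags are therefore not 2 separate events, and their number is no more than chance gives. The same library held the highest C3 of its line (785 CPM) and the lowest Epcam of its 42 libraries (840 CPM against a line median of 1235), and it was the 1 Dock2 KO library with skin or striated muscle genes at 100 CPM or more. The part of these in the high values was not tested.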

How the results depend on the processing

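Settings were compared for the number of members called, the log2 differences named in the report, the group levels and the count of correlations. Of 97 counts of members called under alternatives, 87 kept the value of 0 and 10 did not. With the neutrophil list as a covariate, the count was 1 for KO in Nckap1l (0.0103% of all genes), 1 for sex in Dock2 (C4b, 9.09%), 2 for strain (23%) and 2 for line by genotype (0.8%). With 2 surrogate variables it was 5 for KO in Nckap1l. At an unadjusted p under 0.05 it was 1 for KO in Nckap1l, 1 for KO in Gpsm3, 1 for strain and 1 for line by genotype. Without libraries with prostate or liver genes, an exclusion chosen after seeing the data, it was 4 for strain. The cause was not tested.

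Of 240 log2 differences, 208 kept direction and side of the threshold, 13 passed it and 19 changed sign. Without libraries with skin or striated muscle genes, also chosen after seeing the data, KO minus WT was -1.24 for C3, -0.72 for C4b, -0.69 for C1ra and -0.56 for C1s1 in Nckap1l, and -0.034 for C3 in Dock2. Female minus male was -0.12 for C3 and -0.0041 for C4b in Nckap1l and -0.067 for C4b in Dock2, and 129 minus C57BL6/J was -0.037 for C3, -0.15 for C1ra and -0.074 for C1s1. With males only, C1s1 in Nckap1l was at -0.013. With 2 surrogate variables, C4b in Gpsm3 was at -0.065 and C1s1 in Dok3 at 0.0080. C3 in Dok3 was at -0.17 with limma-voom, -0.10 with the neutrophil covariate, -0.033 without prostate or liver libraries and -0.017 with runs of sample numbers as a covariate. C3 between sexes in Dock2 was at 0.24 with the neutrophil covariate. The cause was not tested.

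In 144 comparisons, no group level moved by 1 SD or more with scaling by total counts or with the median in place of the mean. A median always lies within 1 SD of the mean, so the comparisons with the median test nothing. For C3 in Nckap1l the mean and median were 775 and 437 CPM in KO, and 489 and 205 CPM in WT. Under the alternatives run, 314 or 310 correlations passed in place of 313. Cfi was below the filter on low counts in every comparison of the report, and no paired analysis was possible because the labels give no replicate numbers.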

Other observations

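C1rb, the near copy of C1ra, was above 1 CPM in 13 libraries, all from males and 7 of them of the Gpsm3 line. In each of these libraries the prostate genes Pbsn (22.2 CPM or more) and Tgm4 (39.9 CPM or more) were higher than in any of the other 147 (at most 15.8 and 21.2 CPM). The highest was Gpsm3 WT replicate 4, with C1rb at 92.8, C1s2 at 37.8, Pbsn at 1286 and Tgm4 at 2142 CPM, while C1ra was at 21.3 and C1s1 at 46.4. Median C1ra was 32.6 CPM in the 13 libraries and 31.6 in the other 147. Reads of C1ra and C1rb can be exchanged where their sequence is shared.

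The highest Cfi of the series, 2.26 CPM from 37 counts, was in Gpsm3 WT replicate 10, against at most 1.12 CPM in the other 159 libraries. That library also held Alb at 173 CPM (at most 9.22 elsewhere), Ahsg at 14.8, C8a at 2.87 and C9 at 2.02 CPM. Its C3 was 365 CPM, C4b 166 and Cfb 2.26.

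C7, a terminal component, was lower in females than in males in both lines with both sexes. It ran from 0.399 to 5.98 CPM in Nckap1l females (median 1.41, n = 12) and from 1.91 to 92.3 in males (median 6.98, n = 19), a log2 difference of -3.69 ± 0.72 (SE; edgeR, adjusted p = 0.0173). In Dock2 it ran from 0.455 to 2.05 CPM in females (median 1.00, n = 20) and from 1.85 to 108 in males (median 8.05, n = 22), a difference of -3.85 ± 0.43 (adjusted p = 3.14e-08). Without libraries with skin or striated muscle genes the values were -2.63 (adjusted p = 0.507) and -2.82 (adjusted p = 1.24e-12). Over the other complement genes, 1 of 35 tested passed between sexes in Nckap1l (0.237% of all genes) and 5 of 32 in Dock2 (9.81% of all genes), where Colec10, Cd59a and Clu were higher in females (log2 0.56, 0.36 and 0.46) and C7 and C1rl lower (C1rl -0.24).

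Between strain 129 and C57BL6/J wild-type males, 6 of 37 other complement genes passed in edgeR, beside 16.1% of all genes. Clu (log2 0.73), Masp2 (0.58), Csmd1 (0.55) and Colec12 (0.52) were higher in 129, and Cd59a (-0.44) and C1rb (-3.83) were lower. The C1rb value rests on the libraries with prostate genes.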
